A study of Rattus norvegicus and Homo sapiens with 12 samples.

Results

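Matrix proteases and their inhibitors were measured as RNA in DU145, a human prostate cancer cell line, in the parental population (F0) and in the population recovered after culture in conditioned medium (CM) of human mesenchymal stem cells (MSCs), called F2. The 10 genes are the metalloproteases MMP1, MMP2, MMP9, MMP10 and MMP14, the tissue inhibitors TIMP1, TIMP2 and TIMP3, the urokinase gene PLAU and the urokinase receptor gene PLAUR. They were picked by symbol, out of 60107 identifiers in the DU145 table, with their F2 against F0 values known, so those values are given as a description, with no p for any of the 10 genes and nothing read from how many of them passed a threshold. The study made 12 QuantSeq libraries, 3 each of F0 and F2 DU145 and of F0 and F2 PAIII, a rat line that was not used here. Both DU145 populations were kept in medium with 10% serum, and F0 cells were not given MSC CM. F2 cells had 2 rounds of MSC CM, each of 72 h, per the sample labels, but 3 per the text deposited with the series, which also names 48 h of recovery after the first. It is not stated whether the 3 F2 samples came from separate selections, so n, SD and p describe samples that may share 1 selected population.

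Matrix metalloproteases (MMPs) are zinc-dependent enzymes, made as inactive precursors, that cut collagens and other proteins outside the cell. TIMPs block them by fitting the amino end of the inhibitor into the zinc site. Urokinase is a serine protease that turns plasminogen into plasmin, and its receptor holds it at the cell surface, where plasmin cuts fibrin and matrix and can activate some MMP precursors. MMP14 sits in the cell membrane, where with TIMP2 as an adaptor it activates the precursor of MMP2. Both systems are studied in prostate cancer for their part in invasion and in bone metastasis.

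The zinc sites of the 5 MMPs are shown because they are the shared feature of the enzymes, while only some of these genes had RNA in DU145. The sequences were read from GENCODE release 29 transcripts and placed on GRCh38, 5′ to 3′ on the strand of the gene, and the 3 codons in capitals encode the histidines that hold the zinc. The MMP1 site is in exon 5 at chr11:102795549-102795581 on the minus strand, MMP2 in exon 8 at chr16:55491827-55491859 on the plus strand, MMP9 in exon 8 at chr20:46012453-46012485 on the plus strand, MMP10 in exon 5 at chr11:102776718-102776750 on the minus strand and MMP14 in exon 5 at chr14:22843283-22843315 on the plus strand.
MMP1: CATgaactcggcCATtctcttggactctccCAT
MMP2: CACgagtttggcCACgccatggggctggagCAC
MMP9: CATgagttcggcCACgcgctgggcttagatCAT
MMP10: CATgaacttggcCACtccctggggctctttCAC
MMP14: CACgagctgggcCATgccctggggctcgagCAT
Over the 33 bases, MMP1 was alike to its neighbour on chromosome 11, MMP10, at 25 bases, to MMP14 at 23 and to MMP2 at 18, and MMP2 was alike to MMP14 at 27. These sites lie far from the 3′ end that QuantSeq reads. In the last 500 bases of the transcripts, MMP1, MMP2, MMP10 and MMP14 shared no run of 50 bases with another gene, and MMP9 shared 20.8% of such runs with the antisense gene SLC12A5-AS1.

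The first 8 codons of the mature inhibitors are shown next, since this stretch enters the zinc site of the enzyme. The codons in capitals encode the first and the third residue, both cysteines. The TIMP1 stretch is in exon 2 at chrX:47583485-47583508 on the plus strand, TIMP2 in exon 1 at chr17:78924987-78925010 on the minus strand and TIMP3 in exon 1 at chr22:32802071-32802094 on the plus strand, all on GRCh38.
TIMP1: TGCaccTGTgtcccaccccaccca
TIMP2: TGCagcTGCtccccggtgcacccg
TIMP3: TGCacaTGCtcgcccagccacccc
TIMP1 and TIMP2 were alike at 15 of these 24 bases, and TIMP2 and TIMP3 at 16. For urokinase, the stretch around the catalytic serine is in exon 11 of PLAU at chr10:73916389-73916406 on the plus strand, with the codon of the serine in capitals.
PLAU: ggagacTCAgggggaccc
No run of 50 bases in the last 500 of TIMP1, TIMP2, TIMP3, PLAU or PLAUR was shared with another gene.

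Gene counts per library were between 15879480 and 16479239, and the share from the mitochondrial genome was 5.7% to 6.0% in F0 and 10.2% to 10.6% in F2. Values are counts, or CPM (counts scaled to library size, with TMM factors), and QuantSeq gives about 1 read per transcript, so levels of different genes are compared without dividing by length. Over all 14316 tested genes, 18.2% had an adjusted p under 0.05 in the edgeR quasi-likelihood test of F2 against F0, 9.49% higher and 8.67% lower in F2, and 1.67% also differed at least 2-fold. For 34.0% of the tested genes the F0 and F2 libraries did not overlap. Of the 8 markers of DU145, KRT5 was at 0 and the sum was 2984 to 3218 CPM in F0 and 3244 to 3344 CPM in F2. Of 18 MSC markers, LUM, THY1, POSTN, CXCL12 and SPARC were at 0 and 10 were at or under 3 counts in every library. The MSC list summed to 210 to 234 CPM in F0 and 274 to 292 CPM in F2, and the 15 of its genes under 10 CPM in F0 summed to 11.1 to 14.2 CPM in F0 and 12.5 to 13.0 CPM in F2. Most of the sum of this list was NT5E, at a mean of 158 CPM in F0 and 222 CPM in F2. Of 4 leucocyte markers, PTPRC and CD3E were at 0 and the sum was 5.57 to 5.90 CPM in F0 and 7.08 to 9.61 CPM in F2. Nearly all of this sum was CD68, at a mean of 5.24 CPM in F0 and 7.95 CPM in F2. The 3 endothelial markers summed to at most 0.256 CPM.

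Of the 10 genes, 6 had enough counts to enter the fit, namely MMP1, MMP14, TIMP1, TIMP2, PLAU and PLAUR. MMP1, MMP14, PLAU and PLAUR were higher in F2, TIMP2 was slightly lower and TIMP1 overlapped between the populations. Past the threshold were 4 genes in the upward and 1 in the downward direction, and 2 genes, MMP1 and MMP14, passed at 2-fold. These counts stand beside backgrounds of 9.49%, 8.67% and 1.67%, and are a description only, because this contrast was used to pick the genes. The 5 genes past the threshold were also those with no overlap, beside the background of 34.0%. In RNA of a whole culture, more cells that express a gene and more RNA per cell cannot be told apart.

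**Figure D1:**
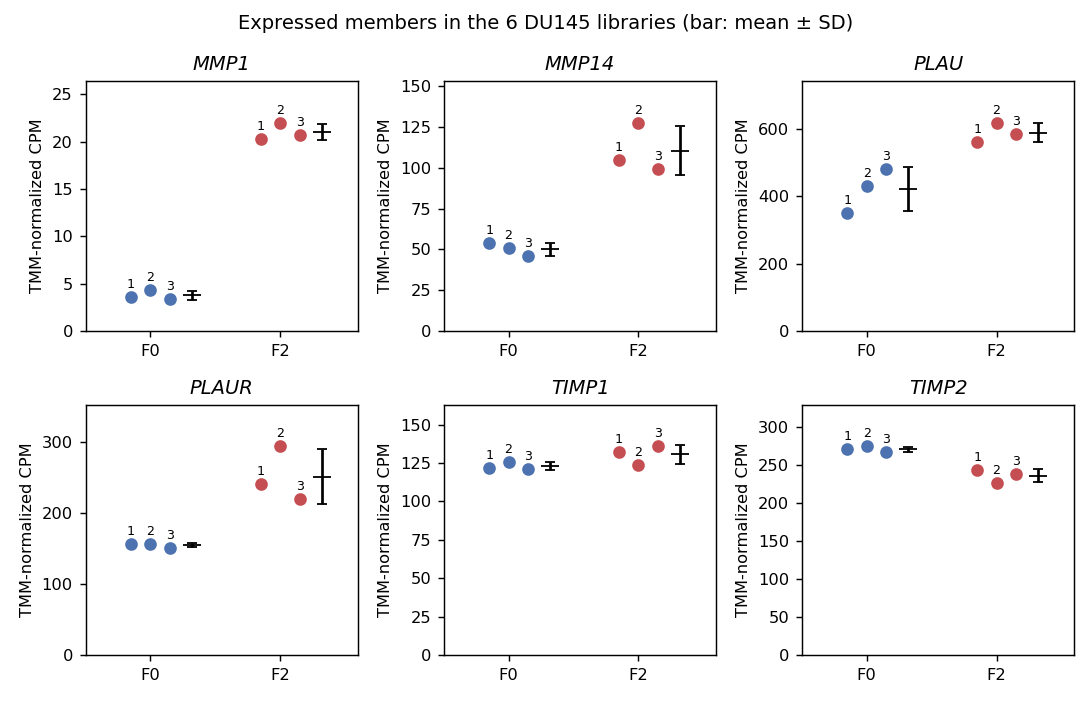
TMM-normalized CPM (linear axis from 0) of the 6 expressed genes in each DU145 library, with points numbered by replicate and a bar for the mean ± SD of 3 libraries. The F2 libraries lay above all F0 libraries for MMP1, MMP14, PLAU and PLAUR and below them for TIMP2, and overlapped with them for TIMP1.

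MMP1, the interstitial collagenase, which cuts the triple helix of fibrillar collagens, lies at chr11:102789920-102798160 on the minus strand, with 10 exons and a last exon of 602 bases. It had 61, 72 and 57 counts in F0 and 318, 339 and 325 counts in F2. All F2 libraries lay far above all F0 libraries, and libraries of a population were close to each other. The level was 3.78 ± 0.517 CPM (SD, n = 3) in F0 and 21.0 ± 0.881 CPM in F2, a log2 fold change of 2.47 with a standard error of 0.12. The coefficient of variation between libraries, 13.7% in F0 and 4.19% in F2, was near the 12.6% and 5.53% that counting alone gives. The F0 level was at percentile 25.0 of the tested genes. MMP1 was thus a gene of low level in the parental line, and its value there rests on 190 counts in 3 libraries.

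MMP14, the membrane-type MMP that anchors collagen cleavage at the cell surface, lies at chr14:22836557-22849027 on the plus strand. Its counts were 910, 839 and 776 in F0 and 1634, 1963 and 1556 in F2, with no overlap. F2 replicate 2 was the highest of the 6 libraries. Its level was 50.2 ± 3.95 CPM for F0 and 110.4 ± 15.0 CPM for F2, which is a log2 fold change of 1.14 with a standard error of 0.08. The variation between F2 libraries was 13.6%, against 2.41% from counting, and leaving out F2 replicate 2 gave a log2 fold change of 1.02.

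The gelatinases MMP2 and MMP9, which cut denatured collagen and basement membrane collagen, had next to no RNA in either population. MMP2, at chr16:55389700-55506691 on the plus strand, had 0 counts in all 6 libraries. With 97131382 gene counts in all, 3 counts set the limit at 0.0309 CPM. MMP9, at chr20:46008908-46016561 on the plus strand, had 1, 5 and 3 counts in F0 and 2, 3 and 3 counts in F2, the totals being 9 and 8. The antisense gene SLC12A5-AS1 had 2 to 8 counts per library at this locus. Such values are at the limit of 3 counts per library, 0.177 to 0.195 CPM, and no difference in MMP9 was detectable at this depth. MMP10, stromelysin-2, at chr11:102770503-102780628 on the minus strand, had 0 counts in every F0 library and 1, 0 and 1 counts in F2, which is also too few to compare. These limits cover counting error only, since PCR copies could not be removed from the counts.

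MMP1 and MMP10 belong to a row of MMP genes on chromosome 11 that arose by duplication, and the other genes of the row were looked up whatever their values. MMP7, MMP20, MMP27, MMP8 and MMP12 had 0 counts in all 6 libraries. MMP3, which starts 45.6 kb from MMP1, had 1 count in F2 replicate 1 and 0 elsewhere. MMP13, 157.6 kb away, had 2, 4 and 1 counts in F0 and 1, 1 and 5 counts in F2. Of the 9 genes, MMP1 was the one with more than a few counts, and MMP10 starts at -17.5 kb from it. WTAPP1, a pseudogene on the opposite strand over both MMP1 and MMP10, had 0 counts in all libraries.

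**Figure D2:**
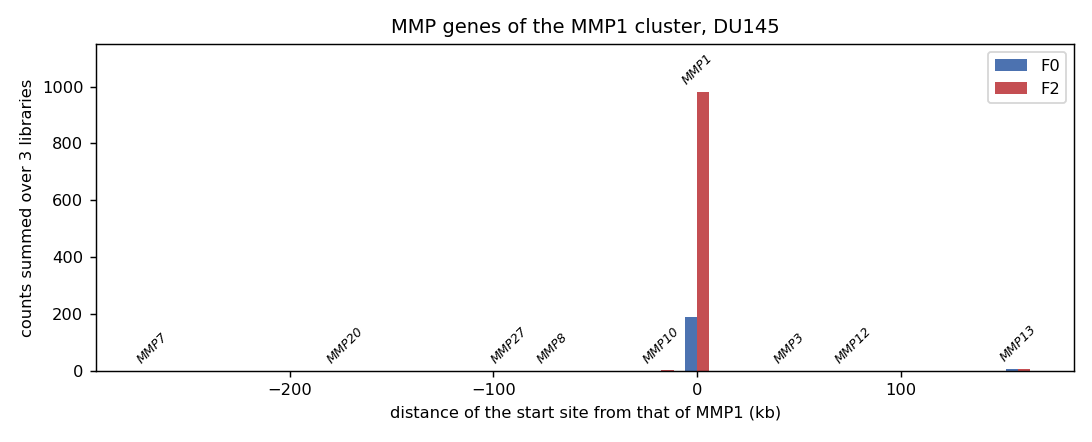
Counts summed over the 3 libraries of F0 and of F2 DU145 (linear axis) for the 9 MMP genes around MMP1, placed by the distance in kb of each start site from that of MMP1. MMP1 had 190 counts in F0 and 982 in F2, and none of the others had more than 7 in either population.

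TIMP1, a secreted inhibitor, lies at chrX:47582313-47586789 on the plus strand and had 2057, 2077 and 2046 counts in F0 and 2070, 1909 and 2130 counts in F2. F2 replicate 2 lay between the F0 libraries in CPM, so the populations overlapped. The level was 122.8 ± 2.62 CPM in F0 and 130.7 ± 6.09 CPM in F2, a log2 fold change of 0.09 with a standard error of 0.05, which was 0.00068 when libraries were scaled by their size alone.

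TIMP2, the inhibitor that MMP14 uses as an adaptor, lies at chr17:78852977-78925387 on the minus strand. It had 4573, 4523 and 4512 counts in F0 and 3795, 3483 and 3735 counts in F2, and each F2 library was below each F0 library. The level was 270.3 ± 3.48 CPM in F0 and 235.7 ± 8.51 CPM in F2, and the log2 fold change was -0.20 with a standard error of 0.04. Variation between libraries was small, 1.29% in F0 and 3.61% in F2. TIMP3, the inhibitor that binds to the matrix, lies at chr22:32801701-32863043 on the plus strand and had 0 counts in all 6 libraries.

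PLAU lies at chr10:73909177-73917497 on the plus strand and was at the highest level of the 10 genes. It had 5942, 7131 and 8138 counts in F0 and 8794, 9528 and 9201 counts in F2. The F0 libraries were spread, with a coefficient of variation of 15.7% against 1.19% from counting, but all stayed below the F2 libraries. The level was 421.4 ± 66.0 CPM in F0 and 589.2 ± 28.3 CPM in F2, a log2 fold change of 0.48 with a standard error of 0.08. It was 0.37 without F0 replicate 1, the lowest library, and 0.59 without F0 replicate 3. C10orf55, on the opposite strand over the end of PLAU, had 38 to 53 counts per library. Whether the counting used the strand is not given in the sources used here.

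PLAUR, at chr19:43646095-43670547 on the minus strand, had 2657, 2589 and 2554 counts in F0 and 3764, 4531 and 3455 counts in F2. As for MMP14, F2 replicate 2 was the highest library and there was no overlap. The level was 154.9 ± 3.3 CPM in F0 and 251.7 ± 38.2 CPM in F2, a log2 fold change of 0.70 with a standard error of 0.07, or 0.58 without F2 replicate 2. The spread of F2 was 15.2%, against 1.6% from counting and 2.13% between F0 libraries.

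In F0 the order of levels was PLAU, TIMP2, PLAUR, TIMP1, MMP14 and MMP1, and no neighbours in that order overlapped between libraries. In F2, PLAUR at 220 to 294 CPM and TIMP2 at 226 to 243 CPM overlapped, as did TIMP1 at 124 to 136 CPM and MMP14 at 99.2 to 127 CPM. PLAU stayed first and MMP1 last of the 6. MMP14 was thus below TIMP1 in every F0 library, while in F2 the ranges of these genes met.

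Ratios within a library do not depend on how libraries are scaled. Counts of the 5 MMPs per 1000 counts of the 3 TIMPs were 146.6, 138.8 and 127.5 in F0 and 333.3, 427.5 and 321.4 in F2, with means of 137.6 ± 9.62 and 360.7 ± 58.1. The ratio was higher in every F2 library than in any F0 library, and its mean was 2.62 times that of F0. In CPM, the summed MMPs went from 54.1 ± 4.13 to 132 ± 15.8 and the summed TIMPs from 393 ± 5.99 to 366 ± 14.0, so most of the ratio's difference lay in the MMPs. MMP14 per 1000 TIMP2 counts was 199.0, 185.5 and 172.0 in F0 and 430.6, 563.6 and 416.6 in F2. MMP1 per 1000 TIMP1 counts was 29.65, 34.67 and 27.86 in F0 and 153.6, 177.6 and 152.6 in F2. MMP1 differed more than MMP14, since MMP1 per 1000 MMP14 counts was 67.03, 85.82 and 73.45 in F0 and 194.6, 172.7 and 208.9 in F2.

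TIMP1 per 1000 TIMP2 counts was 449.8, 459.2 and 453.5 in F0 and 545.5, 548.1 and 570.3 in F2, again without overlap. PLAUR per 1000 PLAU counts was 447.2, 363.1 and 313.8 in F0 and 428.0, 475.5 and 375.5 in F2, and here the populations overlapped. The ratio of receptor to ligand varied at least as much within F0 as between the means of the populations. All these ratios come from the contrast by which the genes were picked, and they are RNA counts that say nothing of the activity of the proteins.

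**Figure D3:**
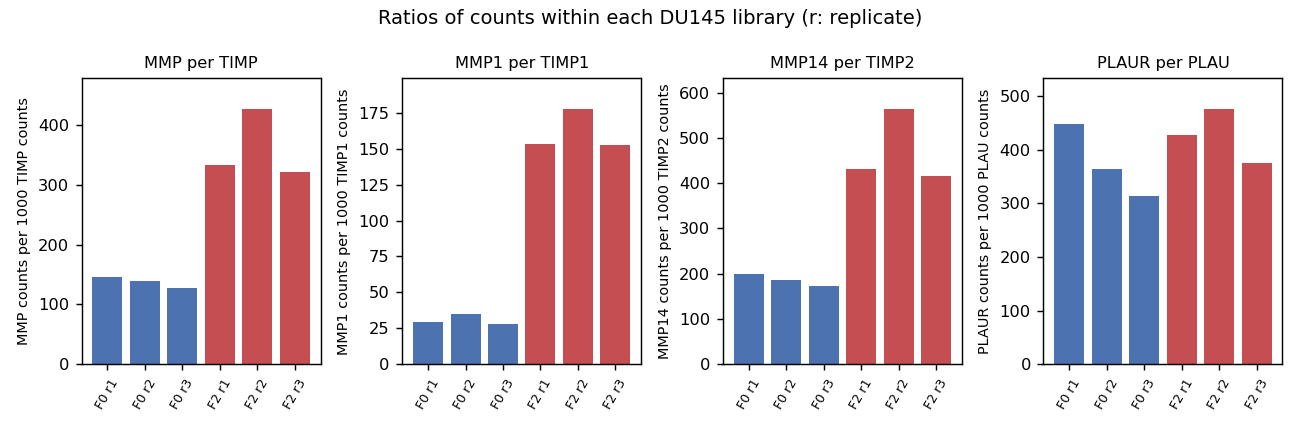
Counts of one gene or group per 1000 counts of another within each DU145 library (linear axes from 0), for the 5 MMPs per 3 TIMPs, MMP1 per TIMP1, MMP14 per TIMP2 and PLAUR per PLAU. The first 3 ratios were higher in each F2 library than in each F0 library, and PLAUR per PLAU overlapped.

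Across all 23 MMP genes looked up, 9 had 0 counts in all 6 libraries, 4 had at most 3 counts in any library, 3 stayed under 10 and 7 reached 10 counts in at least 1 library. MMP14 made up 58.3% of the 4329 MMP counts in F0 and 69.0% of the 7470 in F2. The share of MMP1 was 4.39% and 13.1%, while those of the membrane-type enzymes MMP24 and MMP15 were 18.8% and 14.1% in F0 and 9.72% and 6.51% in F2. Of the 18 MMPs other than the 5 above, 4 were tested, 1 was lower and 3 did not pass. The one that fell was MMP11, stromelysin-3, with 24, 24 and 24 counts in F0 and 9, 6 and 4 counts in F2 (log2 fold change -1.79 ± 0.38 SE, adjusted p = 0.0024, edgeR). With libraries scaled by size alone 2 of these genes were lower, without F2 replicate 1, 1 was higher and 1 lower of 5 tested, and with at least 10 counts required in every library 3 were tested and 0 passed, since MMP11 has fewer counts in F2. MMP16, named after its values were seen, had 2, 3 and 2 counts in F0 and 1, 11 and 14 in F2 and was not tested.

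**Figure D4:**
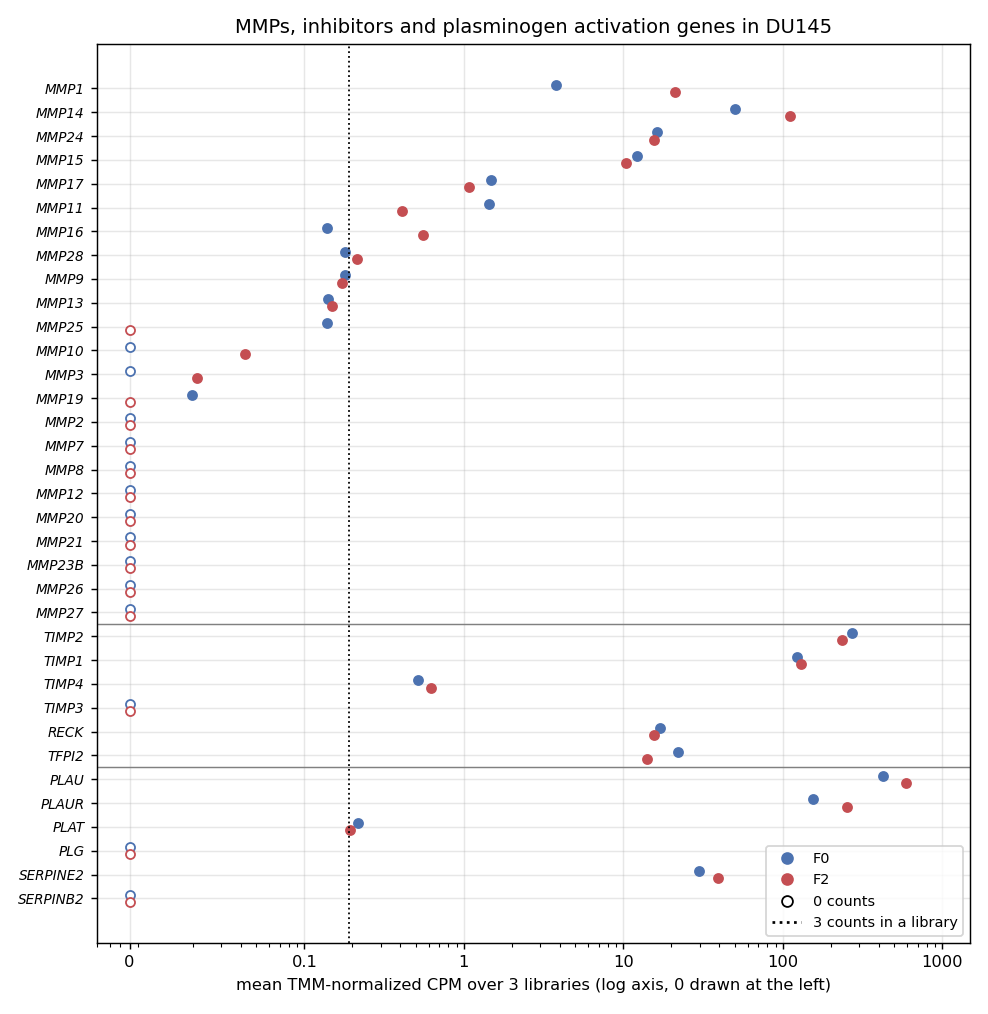
Mean TMM-normalized CPM over 3 libraries (log axis, with values of 0 drawn as open circles at the left) of 23 MMP genes, 6 inhibitors and 6 genes of plasminogen activation in F0 and F2 DU145. The dotted line marks about 3 counts in a library, and 9 MMP genes, TIMP3, PLG and SERPINB2 had 0 counts in both populations.

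A further list held protease inhibitors other than TIMP1, TIMP2 and TIMP3, not all of them known chiefly as inhibitors of metalloproteases. Of 5 genes, 3 were tested, 1 was lower and 2 did not pass. TFPI2, a secreted protease inhibitor held in the matrix, fell from 22.1 to 14.1 CPM (log2 fold change -0.65 ± 0.10 SE, adjusted p = 7.4e-05, edgeR). RECK, a membrane-anchored MMP inhibitor, did not pass (log2 fold change -0.11, adjusted p = 0.46, edgeR). TIMP4 had 7, 10 and 9 counts in F0 and 12, 8 and 9 in F2 and was not tested.

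A list of 17 other genes held the plasminogen system together with some genes of coagulation, such as F3 and PROCR. Of these 17, 11 were tested, and 4 were higher, 1 was lower and 6 did not pass. F3 and PROCR were among the 4 that were higher. The substrate PLG had 0 counts and PLAT, the tissue-type activator, had 2 to 5 counts per library, so PLAU was the only plasminogen activator gene with more than a few counts. F3, tissue factor, which starts coagulation at the cell surface, rose from 20.2 to 37.2 CPM (log2 fold change 0.88 ± 0.12 SE, adjusted p = 2.9e-05, edgeR). ANXA2, part of a surface receptor for plasminogen, rose from 1085 to 1473 CPM (log2 fold change 0.44, adjusted p = 1.8e-06, edgeR), while its partner S100A10 did not pass (log2 fold change 0.14, adjusted p = 0.073, edgeR).

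PROCR, the protein C receptor, rose by 0.41 on the log2 scale (adjusted p = 0.005, edgeR), but it did not pass in DESeq2 (adjusted p = 0.079). Of the inhibitors of plasminogen activators, SERPINE2 rose from 29.9 to 39.4 CPM (log2 fold change 0.40, adjusted p = 0.00036, edgeR). SERPINB2 had 0 counts in all libraries.

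Of 22 proprotein convertases, membrane serine proteases and their inhibitors, 10 were tested, and 2 were higher, 1 was lower and 7 did not pass. With libraries scaled by size alone, 0 were higher and 3 were lower. FURIN, which removes the propeptide of MMP14, did not pass (log2 fold change -0.06, adjusted p = 0.55, edgeR). ST14, matriptase, which can activate urokinase, fell from 4.11 to 2.44 CPM (log2 fold change -0.75 ± 0.19 SE, adjusted p = 0.0084, edgeR). PCSK7 rose by 0.26 on the log2 scale (adjusted p = 0.0057, edgeR), and with libraries scaled by size alone its adjusted p was 0.051 and that of HTRA1 was 0.19. HTRA1, a secreted serine protease, rose by 0.24 (adjusted p = 0.046, edgeR), and leaving out any library but F2 replicate 2 ended the call, with adjusted p between 0.056 and 0.23.

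Of 21 ADAM and ADAMTS genes, the adamalysin relatives of the MMPs, 11 were tested, and 4 were higher, 2 were lower and 5 did not pass. ADAM8 rose from 12.4 to 23.9 CPM (log2 fold change 0.94 ± 0.12 SE, adjusted p = 9.7e-06, edgeR) and ADAMTS15, an aggrecan-cutting protease, from 2.96 to 4.86 CPM (log2 fold change 0.71, adjusted p = 0.011, edgeR). ADAM12 rose by 0.50 on the log2 scale (adjusted p = 0.016, edgeR) and ADAMTSL4, which lacks a protease domain, fell by 0.54 (adjusted p = 0.022, edgeR). The call of ADAM12 ended without F0 replicate 1 or 2 or without F2 replicate 1 or 3 (adjusted p 0.05 to 0.10), and that of ADAMTSL4 without F0 replicate 2 or 3 or F2 replicate 1 or 3 (0.068 to 0.11). Without F0 replicate 2, 3 genes of this list passed, and with libraries scaled by size alone 3 were higher and 3 lower.

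Of 19 cathepsins and cystatins, lysosomal proteases and their inhibitors, 15 were tested, and 2 were higher, 2 were lower and 11 did not pass. CST6, a secreted inhibitor of cathepsins, rose from 27.6 to 40.6 CPM (log2 fold change 0.55, adjusted p = 5.2e-05, edgeR), and CTSL, one of its targets, fell from 331 to 262 CPM (log2 fold change -0.34, adjusted p = 6.4e-05, edgeR). CTSV fell by 0.33 (adjusted p = 0.039, edgeR) and CTSA, a lysosomal carboxypeptidase, rose by 0.20 (adjusted p = 0.032, edgeR). Both calls ended without F0 replicate 2 or 3 or F2 replicate 1 or 2, with adjusted p of 0.064 to 0.19 for CTSV and 0.077 to 0.17 for CTSA. Without F0 replicate 2, and likewise without F2 replicate 1, 2 genes of this list passed, and with libraries scaled by size alone 1 was higher and 6 were lower.

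Among 19 inducers and docking partners of these proteases, 16 were tested, and 7 were higher, 1 was lower and 8 did not pass. With libraries scaled by size alone, 7 were higher and 4 lower. JUN, a subunit of the AP-1 transcription factor that acts on MMP1 and PLAU promoters, rose from 108 to 191 CPM (log2 fold change 0.82 ± 0.05 SE, adjusted p = 3.2e-10, edgeR). Its relative JUND fell from 102 to 71.5 CPM (log2 fold change -0.52, adjusted p = 6.6e-07, edgeR). ETS1, a transcription factor with known sites in protease promoters, rose by 0.40 (adjusted p = 2.7e-05, edgeR). CD44, a hyaluronan receptor that docks MMP14 at the cell front, rose from 143 to 222 CPM (log2 fold change 0.64, adjusted p = 1.7e-08, edgeR), while BSG, an inducer of MMPs, did not pass (log2 fold change -0.0025, adjusted p = 0.98, edgeR).

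Of 28 matrix proteins that serve as substrates, 24 were tested, and 5 were higher, 6 were lower and 13 did not pass. Without F2 replicate 1, 5 were higher and 1 was lower of 25 tested. COL17A1, a transmembrane collagen of epithelial cells, rose from 6.75 to 13.6 CPM (log2 fold change 1.01 ± 0.12 SE, adjusted p = 3.2e-06, edgeR). NID1 and LAMB1, both of the basement membrane, rose by 0.50 (adjusted p = 0.0045) and 0.41 (adjusted p = 0.00092, edgeR). FN1, fibronectin, fell by 0.52 (adjusted p = 0.041, edgeR), a call that ended when any of the 6 libraries was left out (adjusted p 0.061 to 0.12) and in DESeq2 (0.11). COL12A1 fell by 0.47 (adjusted p = 0.017, edgeR), and this call ended without F0 replicate 2 or 3 or F2 replicate 1 (adjusted p 0.055 to 0.084).

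Over these 8 lists together, 94 of 149 genes were tested, 22 had 0 counts in all libraries and 39 passed, 24 of them higher and 15 lower, against 18.2% of all tested genes. With libraries scaled by size alone, 20 were higher and 27 lower. The median log2 fold change over the 94 genes was -0.02, against -0.0025 over all tested genes, and 2 of the 39 differed at least 2-fold. For 50 of the 94 genes the F0 and F2 libraries did not overlap, beside 34.0% of all tested genes. The lists were chosen with results of these data known, so the counts are a description.

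**Figure D5:**
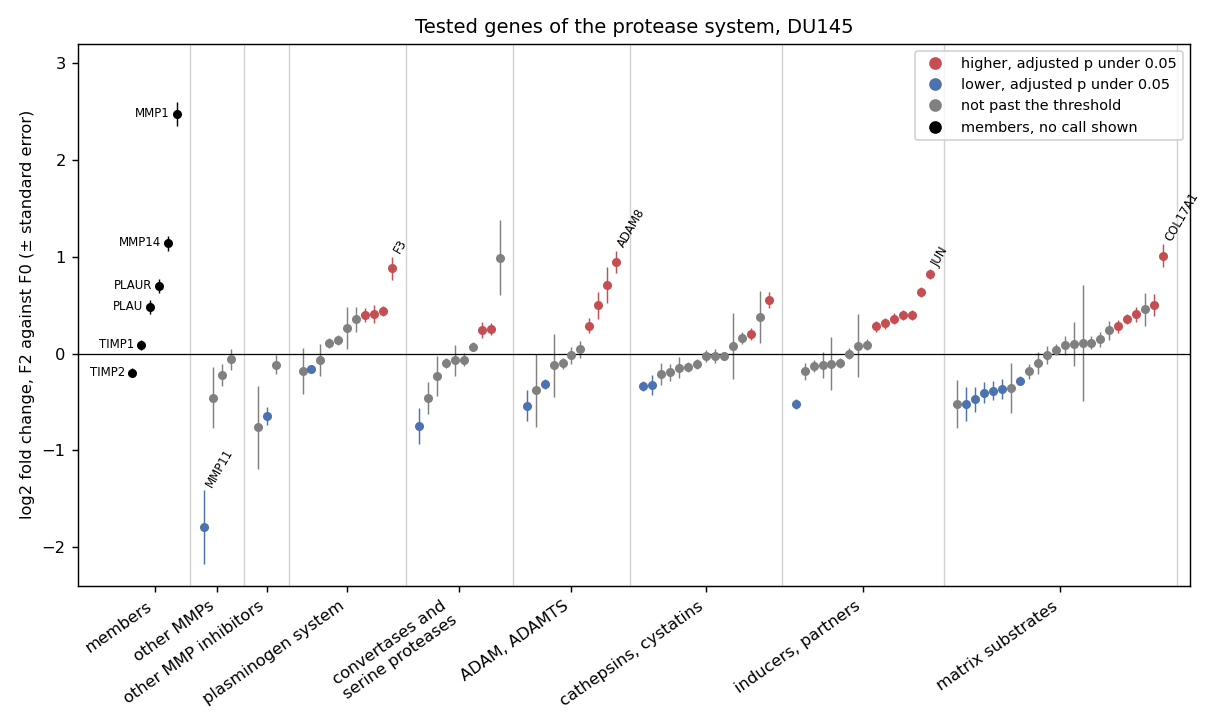
Log2 fold change of F2 against F0 DU145 (points) with its standard error (lines) for the 6 members with enough counts (black, with no call shown) and the 94 tested genes of 8 other lists, ordered by value within a list and coloured by the edgeR call. MMP1 at 2.47 was the highest value plotted, and MMP11 at -1.79 the lowest.

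The genes whose log2 profile over the 6 libraries was nearest to that of MMP1, among 8649 genes with a mean of at least 10 CPM over these libraries, were IL24, MTATP6P1, KRTAP2-3, MPZL2 and MT-ATP6. The root mean square distances were 0.0997, 0.306, 0.329, 0.423 and 0.424 on the log2 scale. IL24, a cytokine of the IL-10 family, was at 8.78 CPM in F0 and at 45.4 CPM in F2. MT-ATP6, a subunit of mitochondrial ATP synthase, went from 4741 to 13657 CPM, and MTATP6P1 is a nuclear pseudogene copy of it, so reads of this pair may be split between them. IL24, KRTAP2-3 and MPZL2, at 8.78, 6.62 and 8.69 CPM in F0, reached the mean of 10 CPM through F2. The likeness rests on the same F2 against F0 values by which MMP1 was picked. With 6 libraries in 2 populations it is a description and mostly reflects the difference between F0 and F2. IL24 differed by about as much as MMP1, which went from 3.78 to 21.0 CPM. The others differed by less. From F0 to F2, MTATP6P1 went from 126 to 438 CPM, KRTAP2-3 from 6.62 to 22.4 CPM and MPZL2 from 8.69 to 26.8 CPM.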

How the data were processed

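RNA of 6 DU145 samples (3 F0, 3 F2) was profiled with the QuantSeq forward kit, from 500 ng of RNA and with single-end reads of 101 bases. The authors deposited raw counts per gene, made on the Bluebee platform. The submitters' processing notes name STAR 2.5.2a, HTSeq 0.6.0 and GRCh38. All other values were computed here from these counts, with R 4.3.3, edgeR 4.0.16, limma 3.58.1 and DESeq2 1.42.0. Lines that name no gene were left out of library sizes and tests, and were, for reads outside genes, 9.60% to 10.0% of uniquely placed reads in F0 and 11.3% to 11.9% in F2. The 92 spike-ins had 0 counts. The filter was filterByExpr with a minimum count of 10 and a total of 15, and genes were then scaled by TMM and tested with the two-sided quasi-likelihood F-test of edgeR without covariates, with Benjamini-Hochberg adjustment over all 14316 tested genes and a threshold of 0.05. On simulated data of 14316 genes, 68 were changed by 0.5, 66 by 1 and 66 by 2 on the log2 scale. The test recovered 60.3%, 89.4% and 95.5% of these, and 3.55% of its calls were false. Far fewer genes were changed there than passed in the data, so recovery in the data may differ.

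The members and the gene lists were chosen with earlier results of these data known. Beside the members, the text names from each list the genes past the threshold at 2-fold and up to 4 others with the largest change and at least 1 CPM, SERPINB2, TIMP4, RECK and the neighbours of MMP1. PLG, PLAT, S100A10, ENO1, FURIN, BSG, MMP15, MMP16 and MMP24, and the markers CD68 and NT5E, were added for context after their values were seen. Likeness to MMP1 was the root mean square distance of log2(CPM + 0.5) profiles centred on their means. Positions, exons and sequences are those of GENCODE release 29 on GRCh38, matched by gene identifier. The rat tables were not used here, and some genes of the lists are not reported here. The alternatives were other scalings, filters and tests, a replicate block, no mitochondrial genes and each library left out.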

Additional observations from a re-analysis of the deposited data

How the results depend on the processing

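MMP1, MMP14, PLAU, PLAUR and TIMP2 kept their direction in all 13 alternatives, and so did TIMP1, whose log2 fold change was 0.00068 to 0.13. Over these the log2 fold change was 2.39 to 2.59 for MMP1, 1.02 to 1.21 for MMP14, 0.37 to 0.59 for PLAU, 0.58 to 0.79 for PLAUR and -0.29 to -0.17 for TIMP2. Scaling by library size alone moved the median of all genes by -0.09. The genes past the threshold were then 832 higher and 2805 lower, in place of 1358 and 1241. The log2 ratio of summed TIMPs moved from -0.10 to -0.19. Which scaling is nearer to the RNA content of the cells was not tested, since the spike-ins had no counts. Leaving out 1 library gave 1670 (without F0 replicate 2) to 2621 genes past the threshold. The replicate block gave 2867 in all and 44 of the other protease genes in place of 39. Same-numbered samples deviated together with correlations of 0.17, -0.04 and 0.17 over 8650 genes, and samples of unlike number with -0.205 to 0.0665. Whether same-numbered samples share more than a number was not tested. Over the tested members, RECK and the other genes that were named because they passed, ENO1 apart, 390 values kept their call under an alternative, 38 lost it and 0 reversed. Most of these genes were picked by their values in the main fit, so these counts do not speak for other genes. The comparison with rat PAIII was not run, because its identifiers were not paired with symbols. Depth limits MMP2, MMP9, MMP10 and TIMP3, and spread between F2 libraries limits MMP14 and PLAUR. Spread between F0 libraries limits PLAU, and the F0 level of MMP1 rests on 190 counts.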
